A study of Saccharomyces cerevisiae with 39 samples.

Results

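A set of 10 genes of the budding yeast meiotic programme were followed in haploid cells that were dividing, not sporulating. The genes were taken by name from the count files: IME1 (YJR094C), IME2 (YJL106W), NDT80 (YHR124W), SPO11 (YHL022C), SPO13 (YHR014W), HOP1 (YIL072W), REC8 (YPR007C), ZIP1 (YDR285W), SPS4 (YOR313C) and SPS100 (YHR139C). They are 10 of 8898 counted features, 6007 of which are protein-coding. All 10 identifiers were found, 8 genes had at least 1 count in every library, and SPO13 and SPS100 were listed at 0 in every library. RNA was sequenced from 39 cultures in 13 groups of 3 biological replicates of strains built to study the RNA exosome, the complex that degrades and trims RNA from the 3′ end.

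Every strain was a haploid with the ura3Δ0, leu2Δ0 and his3Δ1 alleles that lacked the chromosomal copy of an exosome gene and carried a LEU2 CEN6 plasmid of the pRS315 type. All cultures, controls included, were grown for 5 h at 37 °C in 10 mL of minimal glucose medium without leucine. The RRP4 control and rrp4-G226D were MATα, lys2Δ0 and rrp4Δ::NEO. The RRP40 control, rrp40-S87A and rrp40-W195R were MATa and rrp40Δ::NEO. The RRP45 control and rrp45-I15P were MATα and rrp45Δ::NEO. The RRP46 control, rrp46-Q86I, rrp46-L127T and rrp46-L191H were MATα, lys2Δ0 and rrp46Δ::kanMX4. The RRP6 control and rrp6Δ were MATa, met15Δ0 and rrp6Δ::kanMX4. The plasmid held the wild-type gene in the 5 controls, the missense allele in 7 groups, and no exosome gene in rrp6Δ, which lacks the nuclear exosome nuclease Rrp6. Another label calls all strains BY4741, whichever the mating type.

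Meiosis in budding yeast starts when a diploid MATa/MATα cell starved of nitrogen and fermentable carbon makes Ime1, the transcription factor that turns on the early genes, together with the kinase Ime2. Early genes build the meiotic chromosome and break it for recombination, Ndt80 then turns on the middle genes, and late genes build the spore wall. In dividing cells these genes are held off by repressors, Ume6 at the URS1 element of early promoters and Sum1 at the MSE of middle promoters, and nuclear exosome activity with the RNA-binding protein Mmi1 is known to remove meiotic mRNAs in fission yeast. In bulk RNA, a few cells with much of a transcript and many cells with little of it cannot be told apart.

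The positions of the coding sequences are those of the R64 build. IME1 is at chrX:604569-605651 (minus strand), 284 bases from IRT1, a noncoding RNA of its promoter, and IME2 at chrX:221390-223327. Chromosome VIII holds NDT80 at chrVIII:356561-358444, SPO11 at chrVIII:62961-64157 (minus strand), SPO13 at chrVIII:132047-132922 and SPS100 at chrVIII:378219-379199 (minus strand). HOP1 is at chrIX:226602-228419, REC8 at chrXVI:569336-571378 (minus strand), ZIP1 at chrIV:1032436-1035063 and SPS4 at chrXV:901858-902874 (minus strand).

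The promoters of the genes hold the letters of these elements, shown here because they are the elements at which early and middle genes are held off. The sequences were read from the R64 genome, 5′ to 3′ on the strand of the gene, and capitals mark the core. Within 300 bases before the coding start, the URS1 core GGCGGC was found on either strand in SPO13, HOP1, REC8 and ZIP1, 4 of the 10 genes, against 312 of 5987 protein-coding promoters (5.21%).
SPO13: tattgagaaataGCCGCCgacaaaaaggaa
HOP1: gtttttaacctgGGCGGCtaaattgtactt
REC8: gaacttgacttcGGCGGCaaaccaatatat
ZIP1: taaaataccctcGGCGGCtaaatttttaga
These lie at chrVIII:131940-131969, chrIX:226419-226448, chrXVI:571545-571574 (minus strand) and chrIV:1032404-1032433, and in SPO13 the core is on the opposite strand. The MSE core CACAAAA was found in the same windows of NDT80, at 2 sites, and of SPS4, against 475 of 5987 promoters (7.93%). The letters of URS1 and MSE cores do not overlap in these sites.
NDT80, first site: aggccgtatgaCACAAAAgagtagaaaac
NDT80, second site: attgccctccaTTTTGTGtcacctattta
SPS4: ttgacgcgcgcCACAAAAacgtatcattg
The NDT80 sites are at chrVIII:356331-356359 and chrVIII:356464-356492, the latter with the core on the opposite strand, and the SPS4 site is at chrXV:903047-903075 (minus strand). Among other meiotic genes, 16 of 26 early recombination genes held the URS1 core (61.5%) and 18 of 26 middle sporulation genes held the MSE core (69.2%). IME1, IME2, SPO11 and SPS100 held neither core in this window.

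Libraries held 17244127 to 53642418 counts, with a median of 35937895. At that depth, IME1, IME2, NDT80, SPO11, REC8, ZIP1 and SPS4 had at least 10 counts in all 39 libraries. Raw counts over the libraries ran from 318 to 2854 for ZIP1 (median 881), 310 to 1013 for IME2 (median 693) and 168 to 1158 for SPO11 (median 360), and REC8 reached 1527 (median 464). Lower were IME1 with 80 to 579 (median 212), NDT80 with 40 to 408 (median 114) and SPS4 with 23 to 223 (median 55). HOP1, a core protein of the meiotic chromosome axis, had 1 to 38 counts, a median of 7, and reached 10 in 14 libraries, so its values rest on few reads. For SPO13 and SPS100 a count of 0 allows up to 3 counts, or 0.174 CPM (counts scaled to a common library size) in the smallest library, for counting error only. However, 255 protein-coding features (4.25%) were at 0 in all 39 libraries, among them RPB11 and SMX3, which dividing cells need, so no statement is made on whether SPO13, which keeps sister chromatids together at the first division, or SPS100, a spore wall protein, was silent. SPS100 overlaps the antisense transcript SUT169 over 946 of its bases, while SPO13 overlaps no other gene of the RefSeq annotation. Overlap with counted noncoding transcripts outside that annotation was not checked.

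**Figure D1:**
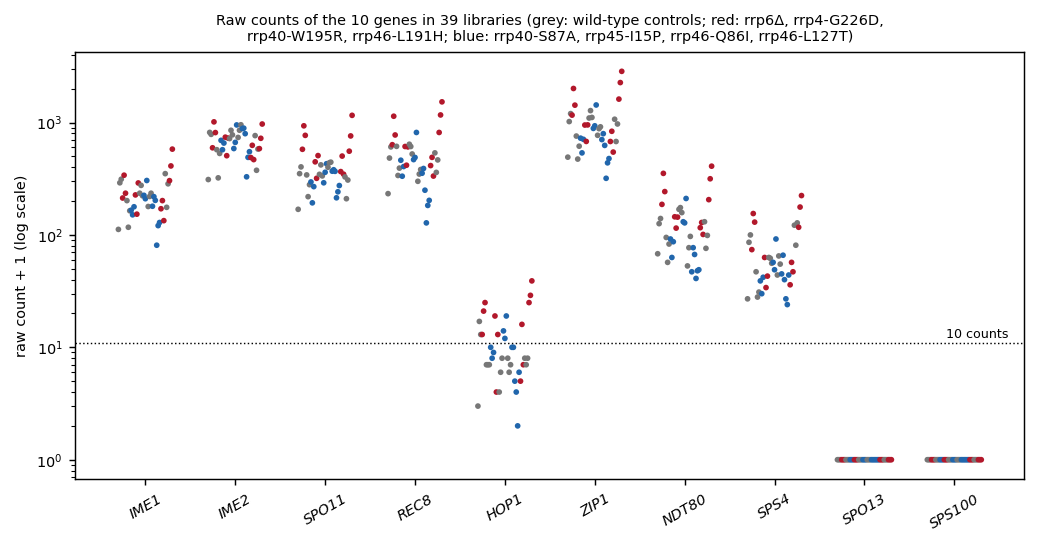
Raw count plus 1 on a log axis for each of the 10 genes, 1 point per library, with controls in grey, rrp46-L191H, rrp6Δ, rrp4-G226D and rrp40-W195R in red, and the other 4 mutants in blue. SPO13 and SPS100 sit at a count of 0 throughout and HOP1 lies at 1 to 38 counts around the dotted line of 10.

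Levels of different genes were compared per kilobase of coding sequence, as CPM per kb over the 15 control libraries of 5 groups. In the pooled mean, IME2 (9.65 ± 1.27, SD, n = 15) and ZIP1 (9.63 ± 1.12), a protein of the synaptonemal complex, were highest. SPO11, the nuclease that breaks meiotic DNA, followed at 7.97 ± 1.00. REC8, the meiotic cohesin, stood at 6.46 ± 1.37 and IME1 at 5.88 ± 0.820. The order was not the same in every control. SPO11 was above ZIP1 in RRP46 (9.07 and 8.25) and level with it in RRP40 (both 8.77), and IME1 was above SPO11 in RRP6 (6.91 and 6.64). In the pooled values neither IME2 and ZIP1 nor REC8 and IME1 differed beyond their spread. SPS4, a middle gene of unknown activity, and NDT80 were lower, at 1.81 ± 0.712 and 1.61 ± 0.436, also within each other's spread, and HOP1 was lowest at 0.107 ± 0.0469. The median of 5752 detected protein-coding genes was 41.6 CPM per kb. IME2 therefore stood at percentile 11.5, NDT80 at 3.62 and HOP1 at 0.904, all in the lowest part of the transcriptome.

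The controls were not alike. A test of any difference among the 5 control groups (edgeR quasi-likelihood F test, Benjamini-Hochberg adjusted p under 0.05 over all 7725 features) called 7 of 8 genes, beside 88.6% of all features. SPS4 was highest in RRP6, at 2.80, 3.10 and 3.38 CPM, and lowest in RRP40, at 1.30, 1.34 and 1.18 CPM (2.43-fold, adjusted p 1.74e-07). NDT80 was 4.18, 4.14 and 4.10 CPM in RRP45 and 1.51, 1.83 and 2.27 CPM in RRP46 (2.17-fold, adjusted p 4.12e-06). REC8 was 17.4, 16.7 and 15.5 CPM in RRP40 and 8.66, 8.35 and 9.00 CPM in RRP46 (1.92-fold, adjusted p 7.92e-09). None of these pairs of groups overlapped. IME1, SPO11, IME2 and ZIP1 differed 1.31-fold to 1.43-fold between their highest and lowest control, and HOP1 was not called (adjusted p 0.0997; 0.0462 without RRP4 replicate 1). The SPO11 difference lost its call by library totals (adjusted p 0.111). RRP4 and RRP46, which the labels give the same mating type and auxotrophic markers and which differ in the deleted gene and its cassette, also differed in means, with NDT80 at 3.43 and 1.87 CPM and REC8 at 13.2 and 8.67 CPM, a pair not tested alone. The other pairs of controls differ in the deleted gene and in mating type or markers together, and these cannot be told apart. Mutants were therefore set against their family's control. CPM here is scaled by TMM factors over all 39 libraries.

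**Figure D2:**
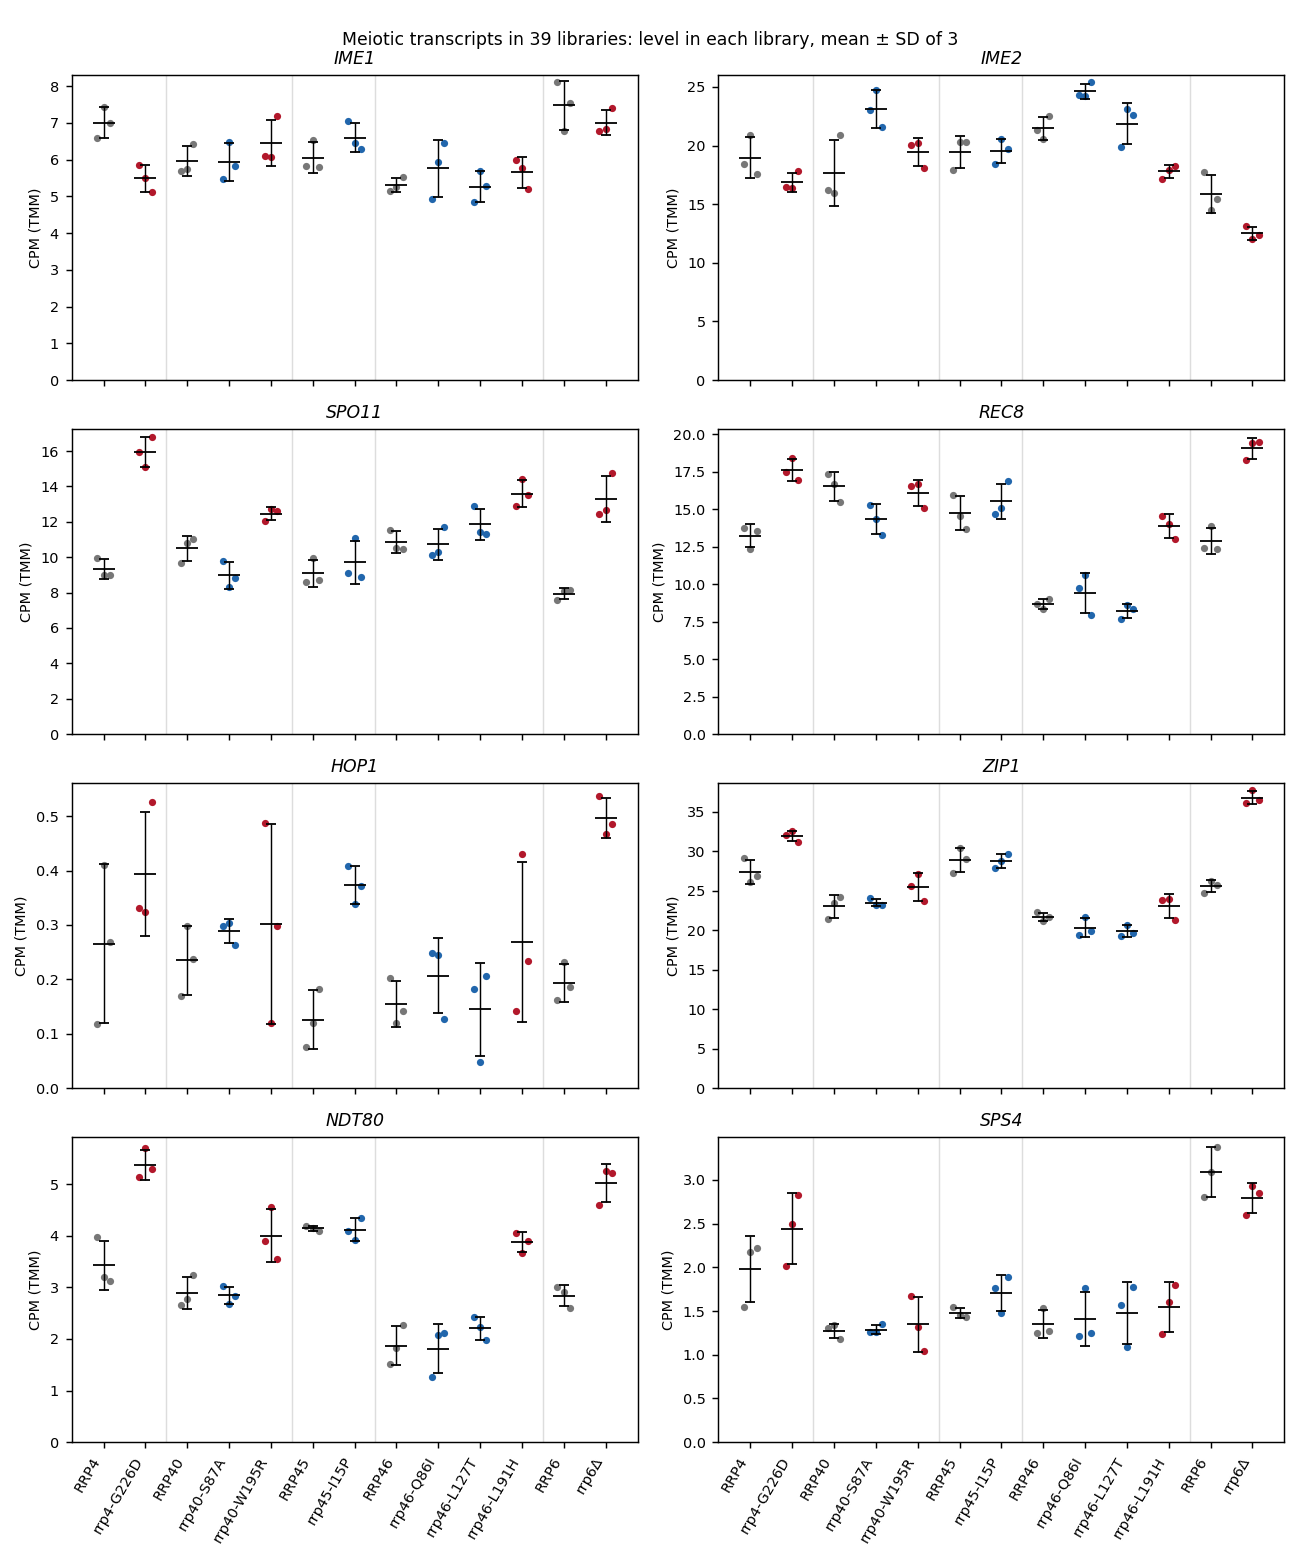
CPM (TMM factors of all 39 libraries) of the 8 detected genes in each library, by group, with the mean and SD of 3 as bars, and a family of strains between each pair of vertical lines. NDT80, SPO11, REC8 and ZIP1 rise in rrp6Δ and rrp4-G226D over their controls, NDT80 and REC8 in rrp46-L191H, and the control groups themselves differ, with REC8 at 8.67 CPM in RRP46 and 16.5 CPM in RRP40.

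Deletion of RRP6 went with higher levels of 5 of the 8 tested genes, HOP1, NDT80, SPO11, REC8 and ZIP1, and a lower level of IME2, while IME1 and SPS4 did not pass the test. Across all 7828 features tested in this comparison, 42.6% were called higher and 40.9% lower, so a call in itself is common here. The median log2 fold change of the 8 genes was 0.56, against 0.03 over all features. ZIP1 was 24.8, 26.2 and 25.8 CPM in RRP6 and 36.2, 37.8 and 36.5 CPM in rrp6Δ, a log2 fold change of 0.54 (SE 0.0519, adjusted p 6.57e-08). REC8 was 12.4, 13.9 and 12.3 CPM in RRP6 and 18.3, 19.5 and 19.5 CPM in rrp6Δ (0.58, SE 0.0716, adjusted p 1.16e-06). The groups did not overlap for either axis or synapsis gene. SPO11 was 7.58, 8.09 and 8.16 CPM in RRP6 and 12.4, 12.7 and 14.8 CPM in rrp6Δ (0.76, SE 0.0891, adjusted p 6.69e-07). NDT80, the activator of the middle genes, was 3.01, 2.90 and 2.61 CPM in RRP6 and 4.59, 5.25 and 5.21 CPM in rrp6Δ (0.84, SE 0.117, adjusted p 5.57e-06). All rrp6Δ libraries were above all RRP6 libraries for both. HOP1 had raw counts of 7, 6 and 7 in RRP6 and 24, 28 and 38 in rrp6Δ, which gave the largest log2 fold change of the 8, 1.39, with the largest error (SE 0.324, adjusted p 0.000863).

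IME2, IME1 and SPS4 were not called higher in rrp6Δ with TMM scaling. Whether their changes differed from those of the genes called higher was not tested. IME2 was 17.7, 14.5 and 15.4 CPM in RRP6 and 13.1, 12.1 and 12.4 CPM in rrp6Δ, below it without overlap (-0.34, SE 0.0790, adjusted p 0.000766). This direction holds relative to the median feature only, since scaling by library totals gave 0.26 (adjusted p 0.00690), higher in rrp6Δ. IME1 was 8.11, 6.77 and 7.55 CPM in RRP6 and 6.79, 6.83 and 7.39 CPM in rrp6Δ, overlapping groups with a log2 difference of -0.09 (SE 0.0941, adjusted p 0.383). SPS4 was 2.81, 3.10 and 3.38 CPM in RRP6 and 2.60, 2.93 and 2.85 CPM in rrp6Δ, also overlapping (-0.13, SE 0.129, adjusted p 0.367). With library totals both had the other sign and were called, IME1 at 0.51 and SPS4 at 0.48, so all 8 genes were higher on that scale, where 74.2% of all features were. The shift between the scales, taken as the median over features of library totals minus TMM, was 0.60 (log2) in rrp6Δ, 0.17 in rrp46-L191H, 0.33 in rrp4-G226D, 0.34 in rrp40-W195R and at most 0.06 in the other 4 mutants. All fold changes of mutants are TMM values relative to this median unless library totals are named.

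In rrp4-G226D, 4 of 8 tested genes were higher, SPO11, NDT80, REC8 and ZIP1, and IME1 was lower, beside 36.1% of 7703 features called higher and 35.9% lower. SPO11 showed the largest change, from 9.97, 8.97 and 9.01 CPM in RRP4 to 15.9, 15.1 and 16.8 CPM in rrp4-G226D (0.80, SE 0.0759, adjusted p 1.15e-08). NDT80 was 3.98, 3.20 and 3.11 CPM in RRP4 and 5.14, 5.70 and 5.30 CPM in the mutant (0.71, SE 0.115, adjusted p 1.57e-05). Both genes had all mutant libraries above all control libraries. REC8 went from 13.8, 12.4 and 13.6 CPM to 17.5, 18.4 and 16.9 CPM (0.43, SE 0.0700, adjusted p 1.50e-05). ZIP1 went from 29.1, 26.1 and 26.9 CPM to 32.1, 32.5 and 31.2 CPM (0.25, SE 0.0558, adjusted p 0.000586). Neither pair of groups overlapped. IME1 was 6.59, 7.43 and 6.99 CPM in RRP4 and 5.85, 5.49 and 5.12 CPM in rrp4-G226D, without overlap (-0.36, SE 0.0954, adjusted p 0.00243), but by library totals the difference was -0.02 and was not called (adjusted p 0.820). IME2 (-0.16, adjusted p 0.0531), HOP1 (0.40, adjusted p 0.341, 2, 16 and 12 raw counts against 12, 20 and 24) and SPS4 (0.26, adjusted p 0.148) overlapped between the groups and were not called. By library totals SPS4 was called higher (0.60, adjusted p 0.00257). IME2 was near the threshold and its direction depended on the scaling, called higher by library totals (0.17, adjusted p 0.0359) and lower with size factors (-0.17, adjusted p 0.0420) or without replicate 3 of rrp4-G226D (adjusted p 0.0321) or of RRP4 (adjusted p 0.0154).

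In rrp46-L191H, NDT80, REC8 and SPO11 were higher and IME2 was lower among 7 tested genes, beside 31.4% of 7550 features called higher and 31% lower. HOP1, at 5 to 7 counts in RRP46 and 4 to 15 in rrp46-L191H, did not pass the filter on low counts. NDT80 was 1.51, 1.83 and 2.27 CPM in RRP46 and 4.06, 3.67 and 3.91 CPM in rrp46-L191H, a log2 fold change of 1.03 (SE 0.156, adjusted p 7.80e-05) that took it from the lowest of the control levels to within the range of the other controls. REC8 was 8.66, 8.35 and 9.00 CPM in RRP46 and 14.6, 14.0 and 13.004 CPM in the mutant (0.68, SE 0.0774, adjusted p 7.08e-06). RRP46 is also the control in which REC8 was lowest. SPO11 was 11.6, 10.5 and 10.5 CPM in RRP46 and 12.9, 14.4 and 13.5 CPM in rrp46-L191H (0.33, SE 0.0774, adjusted p 0.00251). IME2 was 21.3, 20.5 and 22.5 CPM in RRP46 and 17.2, 18.0 and 18.2 CPM in the mutant (-0.27, SE 0.0624, adjusted p 0.00192), and by library totals -0.11 with no call (adjusted p 0.178). The groups did not overlap for any of these 4 genes, while ZIP1, IME1 and SPS4, with log2 differences of 0.09, 0.09 and 0.18, overlapped. By library totals ZIP1 was called higher (0.26, adjusted p 0.00524).

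In rrp40-W195R, NDT80 and SPO11 were called higher among 7 tested genes, beside 26% of 7498 features called higher and 26.5% lower. NDT80 was 2.66, 2.78 and 3.24 CPM in RRP40 and 3.90, 4.56 and 3.56 CPM in rrp40-W195R (0.44, SE 0.154, adjusted p 0.0323). SPO11 was 9.66, 10.8 and 11.0 CPM in RRP40 and 12.1, 12.7 and 12.6 CPM in the mutant (0.23, SE 0.0894, adjusted p 0.0481). The groups did not overlap for either gene. Both calls were close to the threshold. DESeq2 made neither call (adjusted p 0.0657 and 0.119), SPO11 lost it without any 1 of the 6 libraries (adjusted p 0.0565 to 0.186), and NDT80 lost it without rrp40-W195R replicate 1 or 2 or RRP40 replicate 1 or 2 (adjusted p 0.0614 to 0.123). ZIP1, IME2, IME1, SPS4 and REC8 lay between -0.06 and 0.12 (log2) with overlapping groups, and REC8 changed sign to 0.27 (adjusted p 0.0155) by library totals, under which 6 of the 7 genes were called higher, as were 63.6% of all features.

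**Figure D3:**
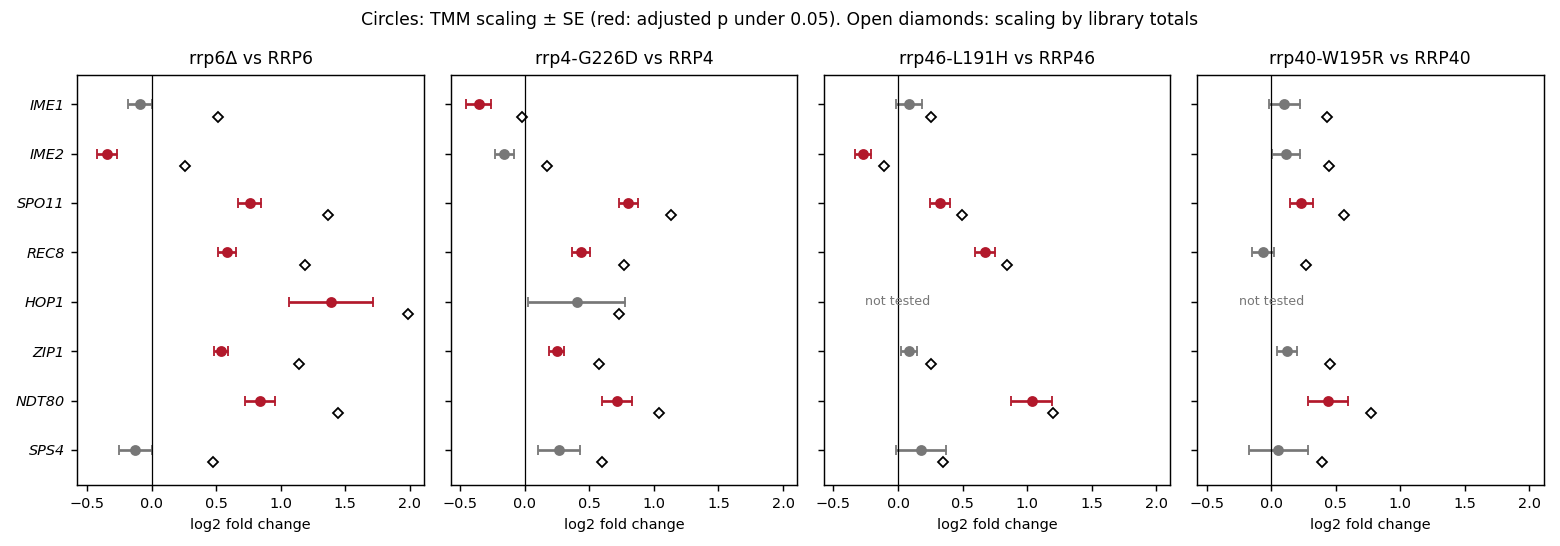
Log2 fold change of each tested gene in the 4 mutants with most changed features, as circles with SE bars for TMM scaling (red where the adjusted p is under 0.05) and open diamonds for scaling by library totals. NDT80 and SPO11 are right of 0 in all 4 panels on both scales, and IME2 changes side with the scale in rrp6Δ (-0.34 against 0.26).

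The other 4 mutants showed 1 call. IME2, the meiotic kinase, was 16.2, 15.9 and 20.9 CPM in RRP40 and 23.0, 24.8 and 21.6 CPM in rrp40-S87A, higher without overlap (0.39, SE 0.102, adjusted p 0.0208), as 1 of 7 tested genes beside 7.69% of 7385 features called higher and 7.8% lower. The lowest rrp40-S87A library was only slightly above the highest control, and the call was lost without rrp40-S87A replicate 1 or 2 (adjusted p 0.0519 and 0.0737) or RRP40 replicate 1 or 2 (0.0838 and 0.104). REC8 was lower there without overlap, at 15.3, 14.4 and 13.3 CPM, but was not called (-0.20, unadjusted p 0.0358, adjusted p 0.137). In rrp45-I15P, 0 of 8 genes were called by edgeR and 0 by DESeq2, beside 0.0266% of 7520 features, with 1 at an unadjusted p under 0.05. That gene was HOP1, with raw counts of 3, 5 and 7 in RRP45 and 13, 11 and 18 in rrp45-I15P, groups that did not overlap (1.56, SE 0.410, adjusted p 0.249). In rrp46-Q86I both tools called 0 of 7 genes, beside 0.515% of 7570 features, with 1 at an unadjusted p under 0.05, IME2 (0.19, adjusted p 0.180), whose groups did not overlap. In rrp46-L127T both tools called 0 of 7, beside 5.24% of 7494 features, and 0 had an unadjusted p under 0.05, though the ZIP1 groups did not overlap (-0.13, adjusted p 0.273). The estimates in rrp46-Q86I ran from -0.10 to 0.19 and in rrp46-L127T from -0.13 to 0.21. The RRP40 control is shared by 2 of these comparisons and the RRP46 control by 3, so their values are not independent.

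A further 4 comparisons set 1 allele against another of its gene, with the mutant libraries given above and those of the weaker alleles here. In rrp46-L191H against rrp46-Q86I, 4 genes were higher and 1 lower of 7 tested, beside 32.5% of 7518 features called higher and 31.8% lower. NDT80 was 1.27, 2.07 and 2.11 CPM in rrp46-Q86I, below every rrp46-L191H library (1.10, SE 0.177, adjusted p 1.10e-05). IME2 was 24.3, 24.2 and 25.4 CPM in rrp46-Q86I, the highest group of the 13, and lower in rrp46-L191H (-0.47, SE 0.0601, adjusted p 4.11e-07). REC8 (0.55), SPO11 (0.35) and ZIP1 (0.18) were higher in rrp46-L191H, with adjusted p of 2.36e-05, 0.000940 and 0.0183; the ZIP1 groups overlapped and DESeq2 did not call it (adjusted p 0.0575). Against rrp46-L127T, 3 of 7 genes were higher in rrp46-L191H and 1 lower, beside 25.6% of 7402 features called higher and 25.9% lower. REC8, at 7.68, 8.62 and 8.32 CPM in rrp46-L127T, differed by 0.75 (SE 0.0885, adjusted p 2.28e-05). NDT80 differed by 0.82 (adjusted p 0.000632), ZIP1 by 0.21 (adjusted p 0.0265; 0.0526 in DESeq2) and IME2 by -0.31 (adjusted p 0.00456; -0.11 and 0.254 by library totals). Between rrp46-L127T and rrp46-Q86I, edgeR and DESeq2 called 0 of 7, beside 0.604% of 7447 features, with 1 gene, IME2, at an unadjusted p under 0.05. In rrp40-W195R against rrp40-S87A, SPO11 (0.45, adjusted p 0.00302) and NDT80 (0.46, adjusted p 0.0304) were higher and IME2 lower (-0.27, adjusted p 0.0222), 3 of 7 genes beside 18.6% of 7509 features called higher and 20.2% lower. SPO11 was 9.80, 8.31 and 8.81 CPM in rrp40-S87A, below all rrp40-W195R libraries. The NDT80 call was not made by DESeq2 (adjusted p 0.0599) and the IME2 difference was -0.01 by library totals (adjusted p 0.949).

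Whether a missense allele and RRP6 deletion changed a gene by different amounts was tested in 1 fit of all libraries. In rrp4-G226D 1 of 8 genes differed from its change in rrp6Δ, ZIP1, beside 45.1% of 7900 features. In rrp40-W195R 4 of 8 did, ZIP1, SPO11, REC8 and IME2, beside 64.2%, and in rrp46-L191H 2 of 8, ZIP1 and SPO11, beside 70.1%. Wherever ZIP1, SPO11 and REC8 were called, their change was lower in the missense mutant than in rrp6Δ, and NDT80 was not called in any of the 3 tests.

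Other genes of the programme were followed in 4 lists that hold none of the 10 genes, and the counts below cover the genes that passed the filter on low counts. Of 26 early recombination and synapsis genes, 20 of 23 tested were higher in rrp6Δ and 1 lower, 20 of 23 were higher in rrp4-G226D and 0 lower, 14 of 22 higher and 1 lower in rrp46-L191H, and 13 of 22 higher and 0 lower in rrp40-W195R. Their median log2 fold changes were 0.79, 0.63, 0.51 and 0.43, beside 0.03, 0.02, 0.00 and 0.02 over all features of the same comparisons. The shares called higher were 87%, 87%, 63.6% and 59.1%, beside 42.6%, 36.1%, 31.4% and 26% of all features. Of all features, 40.9%, 35.9%, 31% and 26.5% were called lower. MSH5, which stabilises crossover intermediates, rose by 1.76 in rrp6Δ (adjusted p 1.71e-12) and 0.90 in rrp40-W195R (adjusted p 2.52e-06). MEI5, a loader of the meiotic recombinase Dmc1, rose by 1.34 in rrp4-G226D (adjusted p 1.13e-08) and 1.39 in rrp46-L191H (adjusted p 1.11e-05). GMC2, of the synaptonemal complex, rose by 1.45 in rrp4-G226D (adjusted p 2.02e-07) and 1.09 in rrp40-W195R (adjusted p 0.000495). REC102, needed for meiotic breaks, rose by 1.39 in rrp6Δ (adjusted p 4.59e-05), and HOP2, which guides homolog pairing, by 1.37 in rrp46-L191H (adjusted p 2.54e-06).

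Middle sporulation genes, which act in the divisions and the making of spore membranes, were higher in 17, 18, 13 and 13 of 23 tested in rrp6Δ, rrp4-G226D, rrp46-L191H and rrp40-W195R, and lower in 1, 1, 3 and 1. Medians were 0.62, 0.50, 0.32 and 0.29, beside 0.03, 0.02, 0.00 and 0.02 over all features. In these comparisons 42.6%, 36.1%, 31.4% and 26% of all features were called higher and 40.9%, 35.9%, 31% and 26.5% lower. SPO19 rose most, by 2.30 in rrp6Δ (adjusted p 1.55e-13). SPS1, a kinase of spore formation, rose by 1.72 in rrp6Δ (adjusted p 2.38e-13), 1.20 in rrp4-G226D (adjusted p 1.37e-13) and 0.93 in rrp40-W195R (adjusted p 4.08e-06). SPO20, a membrane fusion protein of the prospore membrane, rose by 1.19 in rrp4-G226D (adjusted p 1.14e-10). In rrp46-L191H the sporulation septin SPR3 rose by 1.36 (adjusted p 1.50e-07) and MAM1, which co-orients sister kinetochores, by 0.97 (adjusted p 0.000241). CDA2, a chitin deacetylase of the spore wall, rose by 0.88 in rrp40-W195R (adjusted p 0.00891). Late and spore wall genes, all 10 tested, were higher in 9, 8, 6 and 5 and lower in 1, 0, 0 and 0, in the same order of mutants, with medians of 0.83, 0.60, 0.36 and 0.36. DIT1, of dityrosine synthesis, rose by 1.04 in rrp4-G226D (adjusted p 3.34e-08) and 0.71 in rrp40-W195R (adjusted p 0.00341). DTR1, which exports the dityrosine precursor, rose by 1.25, 1.32 and 0.69 in rrp4-G226D, rrp46-L191H and rrp40-W195R (adjusted p 2.38e-08, 2.15e-06 and 0.00266). LDS1 rose by 1.64 in rrp46-L191H (adjusted p 8.06e-07), and OSW1 and OSW2, of spore wall assembly, by 1.41 and 1.33 in rrp6Δ (adjusted p 8.06e-06 and 7.96e-12). By library totals the medians of all 3 lists were higher in each of the 4 mutants, as was the median of all features. On that scale 23 of 23 early genes were called higher in rrp6Δ, beside 74.2% of all features.

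The list of 18 regulators of meiotic entry, which holds genes that promote entry as well as repressors, had calls in both directions. In rrp6Δ 31.2% of 16 tested were higher and 43.8% lower, beside 42.6% and 40.9% of all features, and in rrp4-G226D 29.4% of 17 were higher and 35.3% lower, beside 36.1% and 35.9%. In rrp40-W195R it was 31.2% and 31.2% of 16, beside 26% and 26.5%, and these shares are near those of all features. In rrp46-L191H 2 of 16 were higher (12.5%) and 7 lower (43.8%), beside 31.4% and 31%. The 4 comparisons had median log2 differences of -0.07 for rrp6Δ, -0.03 for rrp4-G226D, -0.07 for rrp40-W195R and -0.08 for rrp46-L191H, and by library totals 0.53, 0.30, 0.27 and 0.09. On that scale 14 regulators were higher and 1 lower in rrp6Δ, 11 and 1 in rrp4-G226D, 12 and 1 in rrp40-W195R, and 6 and 2 in rrp46-L191H. Of all features, 5805 of 7828, 5148 of 7703, 4769 of 7498 and 3594 of 7550 were called higher by library totals, in the same order. Called lower were 1128, 929, 590 and 1276 features. RME1, the haploid repressor of IME1, fell by 0.91 in rrp6Δ (adjusted p 2.53e-10), 0.66 in rrp46-L191H (adjusted p 1.76e-07) and 0.41 in rrp4-G226D (adjusted p 1.60e-06), against -0.30, -0.49 and -0.08 by library totals. RME1 was also called lower in rrp40-W195R (-0.40, adjusted p 0.00269), and was at -0.06 by library totals. SSN3, the kinase of the Mediator complex, fell by 0.45 in rrp4-G226D (adjusted p 1.68e-08), and was at -0.12 by library totals. RIM11, a kinase of Ime1 and Ume6, fell by 0.52 in rrp46-L191H (adjusted p 1.16e-06) and 0.59 in rrp40-W195R (adjusted p 3.06e-05), against -0.36 and -0.26 by library totals. UME6 rose by 0.47 in rrp40-W195R (adjusted p 0.000239) and by 0.31 in rrp40-S87A (adjusted p 0.00368), and RIM15, a kinase of nutrient starvation, by 0.55 in rrp6Δ (adjusted p 2.94e-08). In the other 4 mutants against their controls, that UME6 call was the only call in the 4 lists with TMM scaling. In rrp46-L127T against rrp46-Q86I, SPO19 (1.20, adjusted p 0.0435) and SPS1 (0.61, adjusted p 0.00191) were higher and RME1 lower (-0.25, adjusted p 0.0461).

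**Figure D4:**
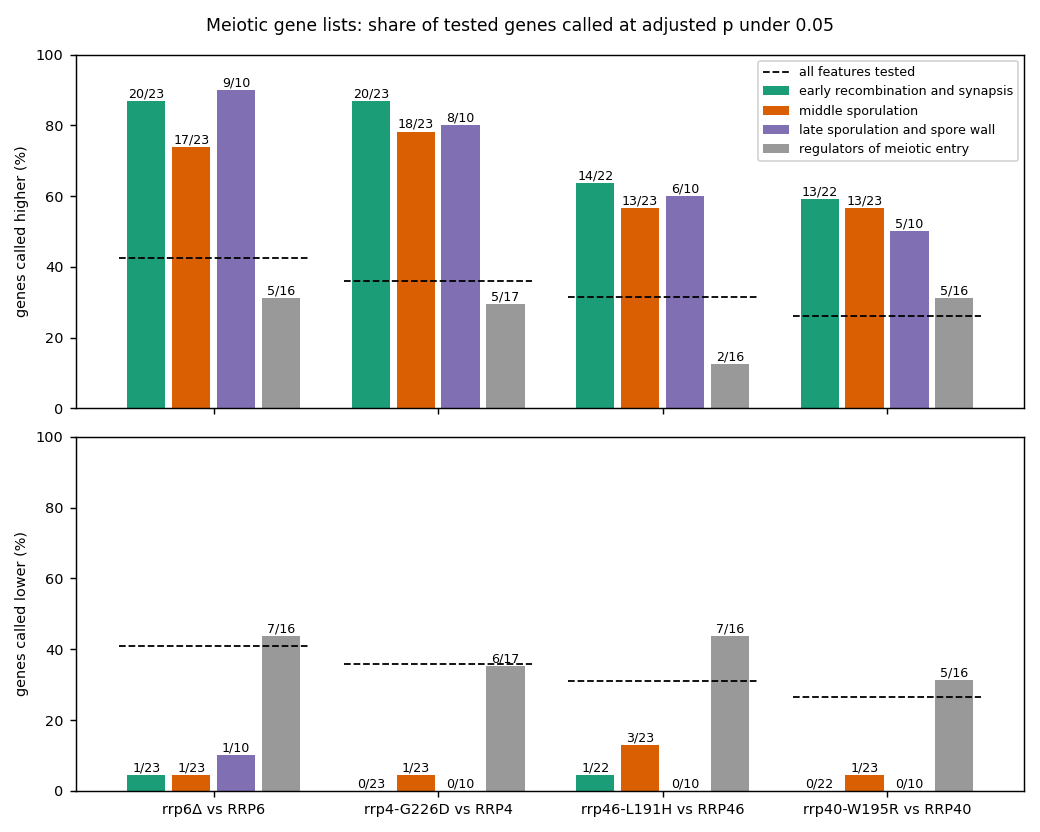
Share of tested genes called higher (upper panel) and lower (lower panel) at an adjusted p under 0.05 in 4 lists of meiotic genes, for the 4 mutants against their controls, with the count over each bar and the share over all features as dashed lines. Early, middle and late lists stand above the dashed line for higher calls, such as 20 of 23 against 42.6% in rrp6Δ, and the regulators lie near or below it except for rrp40-W195R (5 of 16 against 26%).

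Genes that are on in haploids and off in MATa/MATα diploids were followed as markers of the cell type. RME1 and HO are among these 8 markers, and 0 of the 8 were at 0 in all libraries of any group. This cannot decide the cell type, since 0 of the MATa markers were at 0 in MATα groups, and 0 of the MATα markers in MATa groups. The summed level of the 8 was 532.8 to 556.9 CPM in RRP6 and 419 to 426.4 CPM in rrp6Δ, 518.4 to 544.8 CPM in RRP4 and 428.1 to 437.5 CPM in rrp4-G226D, and 622.2 to 656.6 CPM in RRP46 and 549.8 to 576.5 CPM in rrp46-L191H. In RRP40 it was 490.1 to 498.3 CPM and in rrp40-W195R 478.3 to 496.3 CPM. Of the 8, 6 were called lower in rrp6Δ (75%, beside 40.9% of all features) and 0 higher, and 6 lower in rrp46-L191H (75%, beside 31%) and 1 higher. In rrp4-G226D 4 were lower (50%, beside 35.9%) and 1 higher, and in rrp40-W195R 2 were lower and 2 higher (25% each, beside 26.5% and 26%). By library totals the numbers were 2 lower and 5 higher in rrp6Δ, 3 lower and 2 higher in rrp46-L191H, 1 lower and 4 higher in rrp4-G226D, and 0 lower and 5 higher in rrp40-W195R. On that scale 5805 of 7828, 3594 of 7550, 5148 of 7703 and 4769 of 7498 features were called higher, in the same order of mutants. Called lower were 1128, 1276, 929 and 590 features. In rrp4-G226D, a MATα strain, the 4 MATα markers summed to 443.2 to 487 CPM against 921.4 to 985.8 in RRP4. Most of that difference was MF(ALPHA)1 (329 against 786 CPM with the factors of that comparison), 2 of the 4 were called lower and 0 higher, and by library totals 2 were lower and 2 higher. The 6 MATa markers, all called higher beside 36.1% of all features, summed to 87.4 to 94.24 CPM against 66.18 to 68.37. In rrp46-L191H 3 of the 6 MATa markers were called higher and 0 lower, beside 31.4% and 31% of all features. Of the 4 MATα markers, 2 were called higher and 1 lower in rrp6Δ, beside 42.6% and 40.9% of all features. In rrp40-W195R 2 of these 4 were also higher and 1 lower, beside 26% and 26.5%. In rrp6Δ, a MATa strain, the MATa markers summed to 644 to 681.3 CPM against 1023 to 1044 in RRP6. Of the 6, 5 were called lower (83.3%, beside 40.9% of all features) and 1 higher. By library totals 3 were lower and 3 higher, with a median log2 difference of 0.05. In rrp46-L191H, a MATα strain, 3 of the 4 MATα markers were called lower (75%, beside 31%) and 1 higher, and the same numbers held by library totals. The part of these differences in the levels of the meiotic transcripts was not tested.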

How the data were processed

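The authors deposited raw counts of reads per feature, 1 file per library, and tables of log2 fold changes with p-values for 8 comparisons. These tables, per the file headers, also hold a mean signal per feature over libraries (not used here) and the standard error of each fold change as a score. Per the labels' protocols, rRNA was removed from total RNA and libraries were made with the Zymo-Seq RiboFree kit. Per the submitters' processing notes, the genome build was R64 and the tools named were STAR, featureCounts 1.22.2, StringTie 2.1.7 and DESeq2 1.38.1. Strand use and the treatment of reads that map to several places are not given in the sources used here, so reads of a gene and of an antisense transcript cannot be told apart.

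Counts were analysed in R 4.3.3 with edgeR 4.0.16, each comparison on its own 6 libraries, with the default expression filter, TMM scaling and the two-sided quasi-likelihood F test in its robust form, with Benjamini-Hochberg adjustment over all features tested. A gene was called at an adjusted p under 0.05. Joint fits of all 39 libraries gave the contrasts of missense and rrp6Δ effects, and 15 control libraries gave the test among controls. SE is the size of the log2 fold change divided by the square root of F. Library sizes were the full column totals. CPM printed per library uses TMM factors over all 39 libraries. In counts simulated from rrp6Δ against RRP6, 200 of 7785 genes were changed by 0.5 (log2) in both directions. Of these 178 were called with the right sign, and 18 unchanged genes were called. The real comparison called 6536 of 7828 features, so the simulation does not test the choice of scaling there. Alternatives were scaling by library totals or size factors, other filters, a replicate block, DESeq2 1.42.0, and leaving out each library.

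Same-numbered libraries did not deviate together, so the numbers were not used as pairs. No pair of libraries of a group agreed within sampling noise. Promoters were read from the RefSeq R64 genome. The 10 genes and the lists were chosen with earlier results of these data known. From each list, the text names the 2 called genes with the largest change among those with a mean of at least 1 CPM. The groups did not overlap for these genes. That is likely for genes chosen by the size of a called change, so it is no separate support. The noncoding RNA of the IME1 promoter was not analysed here.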

Additional observations from a re-analysis of the deposited data

Results flagged for a closer look

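The effect of a missense allele was set against the effect of RRP6 deletion in 1 fit of all 39 libraries, and the edgeR quasi-likelihood test called 1 of 8 genes in rrp4-G226D, 4 in rrp40-W195R and 2 in rrp46-L191H at an adjusted p under 0.05. All 3 shares are below those of all features, of which 45.1%, 64.2% and 70.1% were called. By library totals the counts for rrp4-G226D and rrp46-L191H were 4 each, beside 4313 and 6106 of 7900 features. For rrp4-G226D it was ZIP1, which rose less than in rrp6Δ, by -0.29 on the log2 scale (0.23 against 0.53, adjusted p 0.00223).

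For rrp40-W195R, REC8 differed by -0.62 (-0.04 against 0.57, adjusted p 8.36e-06), SPO11 by -0.50 (0.25 against 0.75, adjusted p 0.000710) and ZIP1 by -0.38 (0.15 against 0.53, adjusted p 0.000103). IME2 went the other way, by 0.49 (0.13 against -0.36, adjusted p 0.000528), and by library totals by 0.18 with no call (adjusted p 0.162).

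For rrp46-L191H, ZIP1 differed by -0.44 (0.09 against 0.53, adjusted p 1.02e-05) and SPO11 by -0.42 (0.33 against 0.75, adjusted p 0.00245). NDT80 was not called in any of the 3 contrasts, with differences of -0.13, -0.37 and 0.21 and adjusted p of 0.567, 0.0873 and 0.322. The 3 contrasts share the RRP6 and rrp6Δ libraries. The rrp4 and rrp46 strains differ from the rrp6 strains in mating type and markers, and the rrp40 strains in a marker, and these cannot be told apart from the allele.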

How the results depend on the processing

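For rrp40-W195R against RRP40, the number of called genes was 2, and 6 by library totals, 1 with size factors, 1 without a filter, 1 with a replicate block, 0 by DESeq2 and 0 to 2 without a library. For rrp40-W195R against rrp40-S87A it was 3. It was 5 by library totals, beside 4307 of 7509 features called higher and 442 lower, and 1 to 2 without a library. The 1 call in rrp40-S87A became 0 to 1. The contrasts with rrp6Δ had 1 call for rrp4-G226D and 2 for rrp46-L191H, and 4 each by library totals. The other counts of calls stayed within 1.5 times of their value, at 5 to 6 without a library in rrp4-G226D, 4 in rrp46-L191H and 6 in rrp6Δ. Library totals turned the sign of IME2 (0.26), IME1 (0.51) and SPS4 (0.48) in rrp6Δ, of IME2 in rrp4-G226D (0.17) and of REC8 in rrp40-W195R (0.27). SPS4 in rrp40-W195R ran from -0.15 without its replicate 1 to 0.23 without its replicate 3. Scaling by library totals moves every feature of a comparison alike; other causes were not tested. Correlations of same-numbered libraries were -0.21 to 0.15. With the replicate block, SPO11 in rrp40-W195R (adjusted p 0.0611) and NDT80 against rrp40-S87A (0.0523) lost their calls. In the 4 mutants with few calls, the 28 estimates that were not called had another sign in 33 of 361 alternatives and were called in 0. HOP1, with 1 to 38 counts, is limited by depth.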

Other observations

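Over the 13 group means, the feature whose level was most like that of each gene was sought among 7899 features by Pearson correlation of log2 CPM, as a description with no test, since the groups share strains and controls. ZIP1 was most like YJL206C (r = 0.982), REC8 like THI12 (r = 0.979), a member of a family of near-identical genes whose reads cannot be assigned with certainty, and NDT80 like MNE1 (r = 0.972). IME2 was most like PAL1 (0.957), SPS4 like MET31 (0.947), SPO11 like ASP3-2 (0.932), which also has near-identical copies, HOP1 like a cryptic unstable transcript (0.914) and IME1 like SMC6 (0.888).

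The authors' deposited table for rrp6Δ lists HOP1 at a log2 fold change of 1.10 (adjusted p 0.00674). For rrp45-I15P the authors' deposited table lists HOP1 at 0.00187 (adjusted p 0.468), with a standard error of 0.0210. The edgeR estimates for HOP1 were 1.39 and 1.56. All fold changes of the 8 detected genes in the authors' rrp45-I15P table lay between -5.02e-05 and 0.00417. They are not on the scale of the edgeR estimates, so the HOP1 value there is not read as an absence of change. For NDT80 in rrp40-W195R, the authors' deposited table gives 0.35 with an adjusted p of 0.0380, and for SPO11 there the authors' deposited table gives 0.20 with an adjusted p of 0.0768.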
